A study of Mus musculus with 9 samples.

Results

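The mouse miRNAs from miR-680 to miR-721 form a block of names that entered the miRNA catalogue together, in the years when small RNAs were found by cloning. All array entries with a mouse miR name in this number range were taken, whatever their arm or version suffix, and star names were left out. This gave 42 miRNAs of the 650 on the array, of which 611 are from mouse and 39 are viral. The choice used the number alone and no measured value. All 8 miRNAs given as typical of the block, miR-689, miR-690, miR-709, miR-705, miR-712, miR-714, miR-720 and miR-706, were found by it.

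Primary hippocampal neurons of C57BL/6 mice were prepared at postnatal day 1 and kept for 10 days in vitro. Total RNA was profiled on 9 Agilent miRNA arrays with 1 dye. Neurons left untreated (control), given 20 μM NMDA or given 50 μM bicuculline had 3 arrays in each group. The labels give 4 h for both treatments, whereas the study's methods describe a short NMDA exposure followed by washing. Added NMDA reaches its receptors inside and outside synapses alike, and bicuculline blocks GABA-A receptors and so drives bursts of synaptic activity. The series' design text speaks of 3 independent experiments. The question addressed here is which miRNAs of the block differed between these conditions.

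A miRNA is cut from a hairpin transcript by Drosha and Dicer and guides Argonaute proteins to messenger RNAs, which it recognizes mainly through its seed near the 5′ end. Entries that were found by cloning are of mixed standing. miR-720 is now regarded as a fragment of a transfer RNA, miR-712 has been traced to the precursor of ribosomal RNA, and the status of miR-689 as a miRNA is debated. A hybridization signal therefore reports small RNA that binds the probe, and no more than that.

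Signals are given in percent of an array's own scale, which is the 75th percentile over the 265 probes that stood well above background on all 9 arrays. A miRNA was read from its brightest probe. Values around 0 and below are background after subtraction, and the lowest signal that counted as well above background lay between 4.39% and 8.40% of the scale, depending on the array. Between 162 and 221 of the 650 miRNAs were well above background on an array, and replicate arrays correlated with Pearson's r between 0.985 and 0.995 across 156 miRNAs, which are not independent replicates. The arrays lay on 2 slides, each with arrays of all 3 groups. The neuronal markers miR-124, miR-9, miR-128, miR-138 and miR-218 were well above background on all 9 arrays. Their summed signal was 3406% to 3432% of the scale in control, 3151% to 3379% after NMDA and 3106% to 3385% after bicuculline. Of 6 markers of microglia and blood cells 5 were well above background on no array, and only miR-146a was, on 8 of 9. The summed signal of the 6 was 9.85% to 14.4% in control, 9.50% to 15.4% after NMDA and 9.07% to 14.6% after bicuculline. Of the oligodendrocyte markers miR-338-3p was present on all 9 arrays and miR-219 on none, with sums of 31.5% to 42.2%, 30.5% to 41.8% and 30.5% to 35.0% in the same order of groups. Of the muscle markers miR-1 was present on all 9 arrays and the other two on none, with sums of 14.7% to 17.5%, 15.5% to 18.2% and 14.3% to 16.1%. A higher signal in such cultures can come from more RNA per cell or from more cells that make it, and bulk arrays cannot tell these apart.

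RefSeq (GRCm38.p6) listed a mature sequence under exactly the array's name for 26 of the 42 miRNAs. On 13 of the 42 the 3 NMDA arrays all gave more signal than any control array, and 7 of these 13 are among the 26. The rest of the 13, which did not match by name, are miR-685, miR-689, miR-696, miR-709, miR-712 and miR-714. The sequences of the 7 are shown because they differ widely from each other, and they were not compared with the probes. Of these 7, miR-686, miR-691 and miR-697 were well above background on no array. Capitals mark the seed, bases 2 to 8.
miR-681: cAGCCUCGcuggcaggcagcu
miR-686: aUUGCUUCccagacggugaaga
miR-690: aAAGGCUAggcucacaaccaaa
miR-691: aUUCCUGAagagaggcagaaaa
miR-697: aACAUCCUgguccuguggaga
miR-705: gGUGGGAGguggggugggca
miR-706: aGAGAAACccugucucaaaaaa

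No seed is shared among these 7. Of the 26 sequences, 23 have a seed that no other of the 1679 mature RefSeq miRNA names carries. The exceptions are miR-686, miR-705 and miR-721, and the seed of miR-721, AGUGCAA, is that of miR-130a-3p, miR-130b-3p and miR-301a-3p. miR-705 lies at chr6:85336341-85336360 on the minus strand within the span of Rab11fip5, and 14 of its 20 bases are G. miR-690 lies at chr16:28599940-28599961 on the minus strand within Fgf12, which encodes an intracellular fibroblast growth factor homologue. miR-706 lies at chr6:120034290-120034311 on the minus strand within Wnk1, a kinase gene. The others lie within Cdkl1 (miR-681, chr12:69763923-69763943, minus strand), Psmb5 (miR-686, chr14:54616746-54616767, minus strand), Robo2 (miR-691, chr16:74342005-74342026, minus strand) and Sf3a3 (miR-697, chr4:124731768-124731788, plus strand). Whether these positions are exonic or intronic was not read from the gene table, which lists gene spans. Since only 61.9% of the block matched by name, a comparison of base composition between responders and the rest is void.

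The sequence of miR-706 recurs near genes. Its first 16 bases as DNA, agagaaaccctgtctc, were searched on both strands in the 32851 RefSeq promoter windows of 300 bases and were found in 28 of them, 0.085% of all windows. Of the other 25 sequences miR-680 and miR-690 were each found in 1 window and 23 in none. Among 137 further array miRNAs matched by name the same search gave at most 11 windows, and 11 of the 137 were found in any. A match is a run of letters and does not show a transcript.

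**Figure D1:**
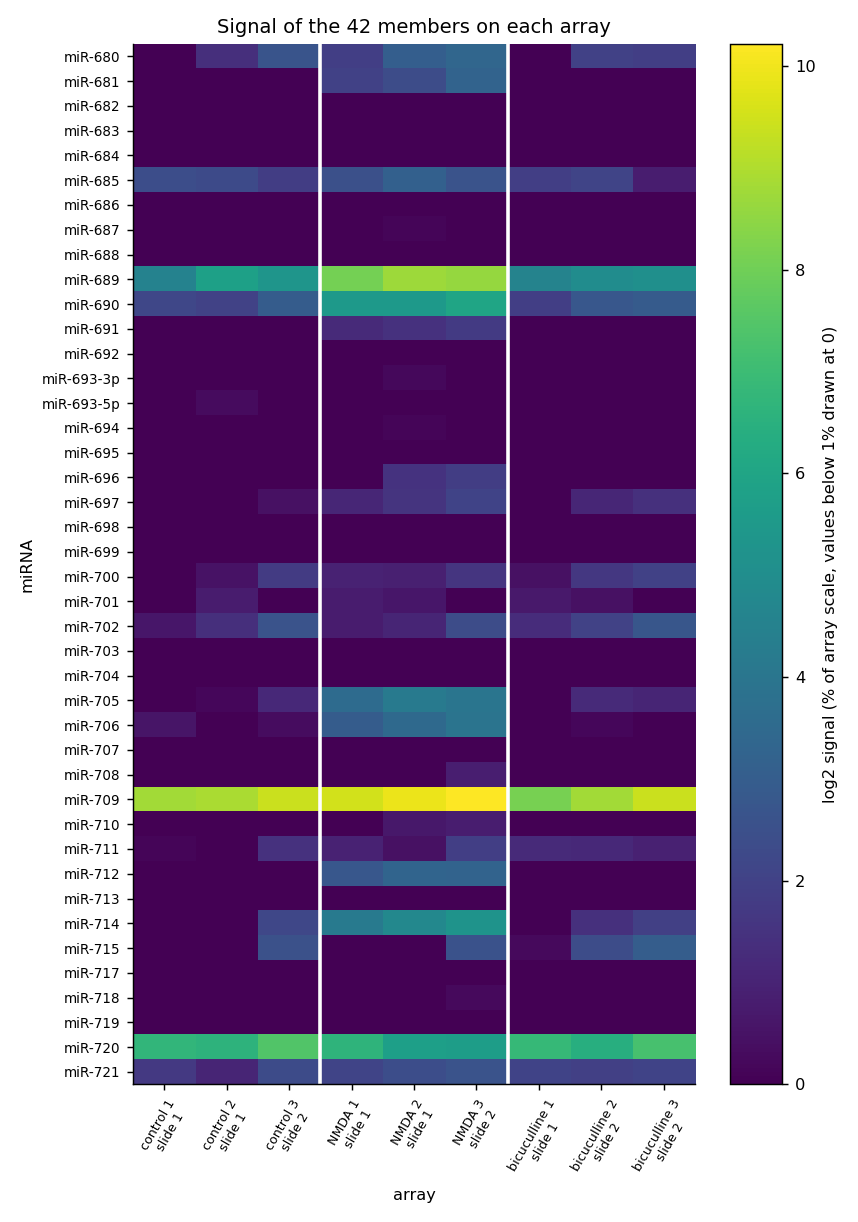
Each row is 1 of the 42 miRNAs and each column 1 array. Colour gives the log2 of the signal in percent of the array scale, with signals below 1% drawn at 0. miR-709, miR-720 and miR-689 are bright on every array, and the NMDA columns stand out for miR-689, miR-690, miR-705, miR-714, miR-706 and miR-712.

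Most of the block was not detected in these neurons. On no array were 28 of the 42 miRNAs well above background, by the brightest or any other probe. By the brightest probe this was so for 348 of the 569 remaining mouse miRNAs (61.2% against 66.7% in the block). Only 3 members, miR-689, miR-709 and miR-720, were well above background on all 9 arrays, against 153 of the remaining mouse miRNAs (7.14% against 26.9%). The other 11 were present on some arrays. Control arrays showed 3 to 8 members well above background, NMDA arrays 6 to 12 and bicuculline arrays 3 to 5. Over all 650 miRNAs these counts were 162 to 205, 181 to 221 and 166 to 206. The undetected members were miR-682, miR-683, miR-684, miR-686, miR-687, miR-688, miR-691, miR-692, miR-693-3p, miR-693-5p, miR-694, miR-695, miR-696, miR-697, miR-698, miR-699, miR-700, miR-701, miR-703, miR-704, miR-707, miR-708, miR-710, miR-711, miR-713, miR-717, miR-718 and miR-719. Their signals lay between -2.69% and 4.13% of the scale.

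NMDA raised 4 members past the test, and the treatment group separated from control for further members too dim to test. A miRNA was tested where the 3 arrays of either group were all well above background. This held for 181 of the 650 miRNAs, 6 of them from the block. limma called 15 of the 181 higher at a Benjamini-Hochberg adjusted p under 0.05 (8.29%) and 0 lower (0%). miR-689, miR-690, miR-705 and miR-714 were among the 15, and 0 members were called lower. At an unadjusted p under 0.05 there were 20 miRNAs, and all 6 tested members were among them. miR-690, miR-705 and miR-714 entered the test only through their NMDA arrays, which favours a higher signal there. The count of 4 of 6 is therefore no measure of the block. Set against what the array carries, the calls were 4 of 42 in the block and 6 of 384 among mouse miRNAs with lower numbers. They were 0 of 38 among those above miR-721 and up to number 1000, and 5 of 32 above 1000. Star names were left out, and names without a miR number were counted with the lower ones. The same filter underlies these counts, so they too are no measure of the block. When signals were scaled to the 75th percentile of all probes, which moved the median log2 change of all tested miRNAs to -0.43 from -0.01, the block had 4 calls higher and 1 lower, miR-720, among 18 calls over the 181.

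miR-689 was measured on every array. Control neurons gave 23.0%, 55.5% and 40.4% of the scale, NMDA-treated neurons 271%, 424% and 391%, and bicuculline-treated neurons 23.6%, 31.2% and 34.3%. All NMDA arrays lay far above the other 6, which overlapped among themselves. The mean rose from 39.6% ± 16.2 (SD, n = 3) to 362% ± 80.7 (SD, n = 3), and the log2 fold change was 3.25 ± 0.32 (SE; limma adjusted p = 0.00031). This was the highest of the 181 log2 fold changes, though for several others the control level was at the floor. Within slide 1 the log2 difference was 3.24 and within slide 2 it was 3.27.

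miR-690 was dim in control neurons, at 4.48%, 4.09% and 7.92% of the scale, and was well above background on 1 of these arrays. After NMDA it gave 45.1%, 44.9% and 63.8%. After bicuculline the signals were 3.73%, 6.87% and 7.56%, again with 1 array well above background. The groups treated with NMDA and left untreated did not overlap, whereas control and bicuculline did. All 3 control levels were at or below the floor of 7.94% of the scale, to which lower signals were raised before taking logarithms. The control arrays therefore contribute no spread to this test. The log2 fold change of 2.67 ± 0.14 (SE; limma adjusted p = 2.9e-05) thus depends on the floor for its control level. It was 3.27 with a floor lower by a factor of 0.5, 1.74 with normexp background correction and 1.08 in the authors' log2 table, and the call was kept in each.

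For miR-714 and miR-705 the 3 NMDA arrays were well above background and the 6 control and bicuculline arrays were not. miR-714 gave 17.9%, 27.6% and 38.3% of the scale after NMDA, 0.76%, 0.39% and 4.53% in control, and 0.95%, 2.64% and 3.81% after bicuculline. The NMDA mean of miR-714 lay 3.88-fold above the lowest signals well above background on the control arrays. This ratio is no lower limit, since the fitted fold was 3.36 (log2 fold change 1.75, limma adjusted p = 0.0020). miR-705, whose mature sequence is the G-rich one shown above, gave 11.8%, 18.3% and 15.8% after NMDA, 0.54%, 1.14% and 2.27% in control, and 0.96%, 2.35% and 2.09% after bicuculline. By the same measure its NMDA mean lay 2.19-fold above those control signals (fitted log2 fold change 0.92, limma adjusted p = 0.0059). In both cases the NMDA arrays lay above all other arrays. The control arrays contribute no spread to these tests, since all were at the floor. With the methods' t-test neither was called (adjusted p = 0.069 for miR-714 and 0.095 for miR-705). Over the alternatives the fitted log2 fold change ran from 0.42 to 5.47 for miR-714 and from 0.16 to 2.18 for miR-705, with adjusted p-values up to 0.70 for both.

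miR-709 was the brightest member and its groups lay closer together. Control neurons gave 445%, 485% and 680% of the scale, NMDA-treated neurons 735%, 971% and 1188%, and bicuculline-treated neurons 280%, 450% and 676%. The lowest NMDA array was just above the highest control array, and in each group the highest array was on slide 2. The mean was 537% ± 126 (SD, n = 3) in control and 964% ± 227 (SD, n = 3) with NMDA, and the log2 fold change was 0.84 ± 0.21 (SE). The limma adjusted p was 0.056, which misses the threshold. In the fit with a replicate block it was 0.0041 at the same fold change, and with the slide as a block 0.0092. Over all alternatives the adjusted p lay between 0.00055 and 0.99. Within slide 1 the log2 difference was 0.86 and within slide 2 it was 0.80.

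miR-720 was the 1 tested member with a lower mean after NMDA. Control neurons gave 106%, 97.5% and 175% of the scale, NMDA-treated neurons 99.9%, 55.1% and 51.3%, and bicuculline-treated neurons 114%, 85.7% and 150.4%. NMDA replicate 1 overlapped the control arrays and the other two NMDA arrays lay below every array of the other groups. Between NMDA and control the log2 fold change was -0.89 ± 0.30 (SE; limma adjusted p = 0.217, unadjusted p = 0.020). Without NMDA replicate 1 it was -1.20 with an adjusted p of 0.046, and over all alternatives the adjusted p lay between 1.5e-07 and 0.85. Within slide 1 the difference was -0.46 and within slide 2 it was -1.77. Counted by size alone, 5 of the 6 tested members were higher by a fold of more than 1.2 and 1 was lower by such a fold. Among all 181 these shares were 9.94% and 1.1%. Since 3 of the 5 entered only through their NMDA arrays, nothing about the block can be read from this count.

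**Figure D2:**
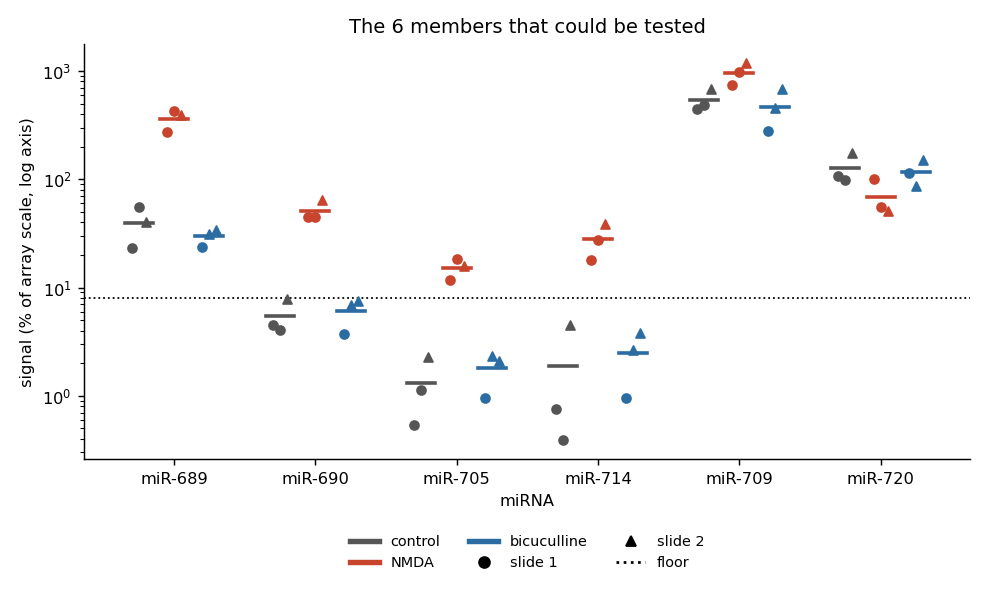
Points give the signal of each array in percent of the array scale on a log axis, and short bars the mean of the 3 arrays of a group. Circles are arrays of slide 1, triangles arrays of slide 2, and the dotted line is the floor of 7.94%. NMDA arrays lie above all control arrays for miR-689, miR-690, miR-705, miR-714 and miR-709, and for miR-720 they range from 51.3% to 99.9%.

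The dim members were compared by the signals themselves, with no floor and no filter. The brightest probe was still used, and it was picked by its mean over all arrays, the NMDA arrays included. Over all 650 miRNAs the 3 NMDA arrays lay above the 3 control arrays without overlap for 68 (10.5%), and in the block this held for 13 of 42 (31%). NMDA lay below control without overlap for 26 of 650 (4%) and for 0 members. Among the 39 viral miRNAs 1 was higher and 1 lower. The 13 are the 5 members just described, miR-681, miR-685, miR-706 and miR-712, which were well above background on some arrays, and miR-686, miR-691, miR-696 and miR-697, which were so on none and are named because of their values. For the 28 undetected members the median difference of NMDA minus control was 0.43% of the scale, with 19 of 28 above 0, and for the 348 other undetected mouse miRNAs it was 0.043%, with 181 of 348 above 0. These are differences within the background range.

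miR-706 gave 7.93%, 11.2% and 15.4% of the scale after NMDA, with 2 arrays well above background, and between 0.84% and 1.5% in control. miR-712 gave 6.83%, 9.77% and 9.56% after NMDA, again with 2 arrays well above background, and -0.60%, -1.39% and 0.56% in control. Both were near 0 after bicuculline, at most at 1.13% and -0.05%. The NMDA mean lay 1.62-fold for miR-706 and 1.25-fold for miR-712 above the lowest signals well above background in control. These ratios too are no lower limits, and 1 NMDA array of each was not well above background. miR-681 gave 3.97%, 5.12% and 9.61% after NMDA and -0.50%, -1.65% and -0.02% in control. Only 1 of its NMDA arrays was well above background, and its NMDA mean did not exceed those lowest control signals. On both slides the NMDA signals of these miRNAs were higher, by 8.41% and 14.2% of the scale for miR-706, by 9.30% and 9.01% for miR-712 and by 5.62% and 9.64% for miR-681. miR-691 showed the same at a level that never left background, with 2.34% to 3.33% after NMDA against -1.02% to -0.25% in control and -1.23% to 0.45% after bicuculline.

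Of the remaining members near the detection limit, miR-685 ranged from 5.71% to 8.79% after NMDA, from 3.66% to 5.39% in control and from 1.77% to 4.30% after bicuculline. miR-680 ranged from 3.73% to 10.4% after NMDA, from 0.98% to 6.23% in control and from 0.77% to 3.90% after bicuculline, so that NMDA and control overlapped. miR-721, which carries the miR-130 seed, ranged from 4.24% to 6.04% after NMDA, from 2.10% to 5.05% in control and from 3.77% to 4.19% after bicuculline. miR-715 and miR-702 followed the slide. The 4 arrays of slide 2 gave 5.25% to 8.12% for miR-715 against -0.08% to 1.21% on the 5 arrays of slide 1, and 4.05% to 6.65% against 1.55% to 2.61% for miR-702. Slide 2 lay above slide 1 without overlap for 30 of 650 miRNAs (4.62%) and for 3 of 42 members (7.14%), these 2 and miR-700. It lay below slide 1 for 52 (8%) and 1 member, miR-687. Within slides 1 and 2 the NMDA mean differed from the control mean by 0.46% and 0.19% of the scale for miR-715 and by -0.18% and -0.84% for miR-702, well inside the gap between the slides.

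**Figure D3:**
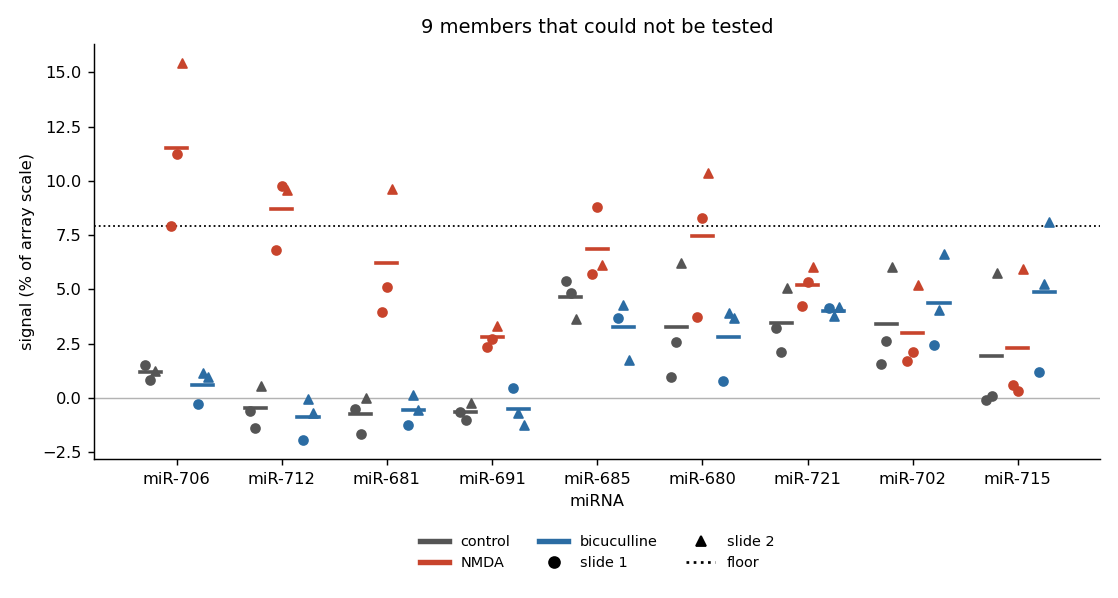
Points give the signal of each array in percent of the array scale for 9 members that could not be tested, with the floor of 7.94% as a dotted line, bars for group means, circles for slide 1 and triangles for slide 2. For miR-706, miR-712, miR-681 and miR-691 the NMDA arrays are separate from the other 6, while for miR-715 the triangles of all groups lie above the circles.

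Each member was covered by several probes, which share a target and are not replicates. The pair of probes of miR-689 gave 195% and 362% of the scale after NMDA against 13% and 39.6% in control, and those of miR-690 gave 37.4% and 51.3% against 4.08% and 5.49%. For miR-709 the probes differed in the size of the change, with 2.82-fold for the dimmer one (63.1% in control) and 1.80-fold for the brighter one (537% in control). For miR-720 the ratio of NMDA to control was 0.55 at the dimmer probe and 0.54 at the brighter one. The members with 4 probes were less even. All 4 probes of miR-705, miR-681 and miR-691 had NMDA arrays above the control arrays without overlap. This held for 3 of 4 probes of miR-714 and miR-697, and for 2 of 4 of miR-706, miR-712, miR-685 and miR-686. For miR-696 it held for 1 of 4, the brightest, and the others differed by -0.26%, -0.51% and 0.07% of the scale. For miR-714 the probe means after NMDA were 27.9%, 13.3%, 1.17% and -1.46%, and for miR-706 they were 11.5%, 1.65%, -0.19% and -0.65%. In the block 40 of 160 probes (25%) were higher after NMDA without overlap, against 181 of all 1857 probes (9.75%). When the mean of all probes was used in place of the brightest, the log2 fold change of miR-714 was 0.42 and that of miR-705 was 0.16, and neither was called. For each of them 2 of the 4 probes were well above background on 2 or more NMDA arrays.

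**Figure D4:**
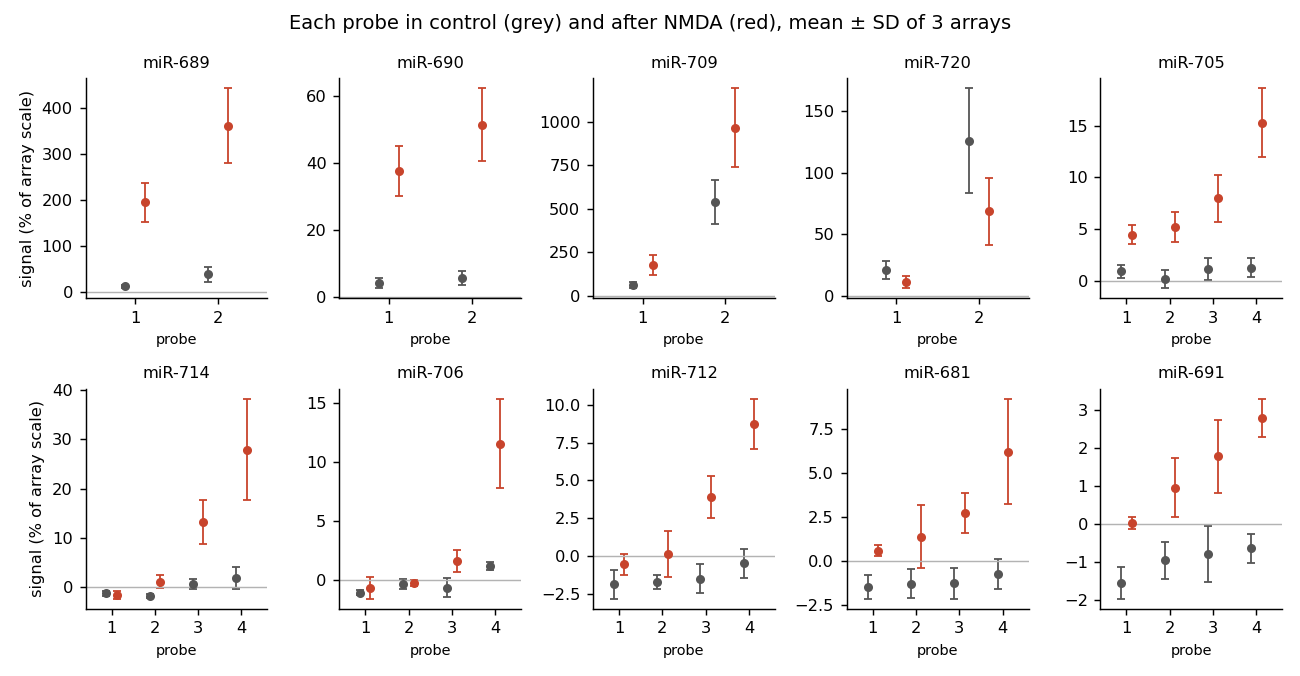
For 10 members each probe is shown with its mean signal in percent of the array scale and the SD of 3 arrays, in control neurons in grey and after NMDA in red, ordered by the NMDA signal. Every probe of miR-689, miR-690, miR-709, miR-705, miR-681 and miR-691 is higher after NMDA, whereas 1 or 2 of the 4 probes of miR-714 and miR-706 carry their signal.

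Bicuculline moved no member past the test. Of 161 miRNAs tested limma called 1 higher (0.621%), which was miR-212, a miRNA of a CREB-regulated cluster with miR-132, and 0 lower (0%). At an unadjusted p under 0.05 there were 2 miRNAs and 0 members, and the methods' t-test gave 4 and 0. The members that could be tested were the 3 present on all arrays. Their log2 fold changes were -0.34 ± 0.30 (SE) for miR-689, -0.26 ± 0.30 for miR-709 and -0.10 ± 0.26 for miR-720, each with a limma adjusted p of 0.999. A p of this size does not show that the levels were equal, and for all 3 the control and bicuculline arrays overlapped. Bicuculline had 1 array on slide 1 and 2 on slide 2, and control the reverse. With the slide as a block the log2 fold changes were -0.45 for miR-689, -0.52 ± 0.17 (SE) for miR-709 and -0.23 for miR-720. The limma adjusted p was then 0.69 for miR-709 (unadjusted p = 0.017) and 0.997 for the other 2. Within slides 1 and 2 the log2 differences were -0.73 and -0.30 for miR-709 and 0.17 and -0.62 for miR-720. By size, miR-689 was lower by a fold of more than 1.2, where 1.86% of the 161 were. This rested on single arrays, since its log2 fold change was -0.057 without control replicate 2 and -0.19 without bicuculline replicate 1, both smaller than that. By the same measure 0 members were higher by that much (1.24% of the 161). Without a filter, bicuculline lay above control without overlap for 9 of 650 miRNAs (1.38%) and 0 members, and below it for 22 (3.38%) and 1 member, miR-703, which stayed in the background range. Among probes, 4 of the 160 in the block were higher after bicuculline without overlap (2.5%, against 1.62% of all probes).

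NMDA and bicuculline arrays were also set against each other, which uses the NMDA arrays a second time. Here limma called 15 of 181 miRNAs higher after NMDA (8.29%) and 1 lower (0.552%), and again miR-689, miR-690, miR-705 and miR-714 were called higher and 0 members lower. The log2 fold change was 3.60 ± 0.21 (SE) for miR-689 and 2.67 ± 0.14 for miR-690, both with a limma adjusted p of 4.1e-05, where all 3 bicuculline levels of miR-690 were at the floor. The NMDA mean of miR-714 lay 4.02-fold above the lowest signals well above background after bicuculline (fitted log2 fold change 1.75, limma adjusted p = 0.0027). Its adjusted p lay between 3.8e-15 and 0.71 over the alternatives, with 0.069 for the methods' t-test. For miR-705 this ratio was 2.27 (limma adjusted p = 0.0069). Without NMDA replicate 3 the adjusted p of miR-705 was 0.051, within a range of 2.5e-05 to 0.71 over the alternatives. For miR-706 and miR-712, not tested, the NMDA mean lay 1.68-fold and 1.30-fold above the lowest signals well above background after bicuculline. None of these ratios is a lower limit, and for miR-706 and miR-712 1 NMDA array of each was not well above background. miR-709 was 2.15-fold higher (SE 0.32 on the log2 scale, limma adjusted p = 0.111, or 0.011 with the slide as a block and 9.2e-08 to 0.92 over the alternatives) and miR-720 differed by -0.79 ± 0.30 on the log2 scale (SE; limma adjusted p = 0.275). By size, 5 members were higher by a fold of more than 1.2 and 1 lower by such a fold (11% and 2.76% of all 181). Again 3 of the 5 entered only through their NMDA arrays. With scaling to all probes, which moved the median of all miRNAs to -0.47, 5 members were called higher and 1 lower, among 143 calls over the 181. Without a filter, NMDA lay above bicuculline without overlap for 79 of 650 miRNAs (12.2%) and for 15 of 42 members (35.7%), and below it for 12 (1.85%) and 1 member, miR-698, which stayed in the background range.

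**Figure D5:**
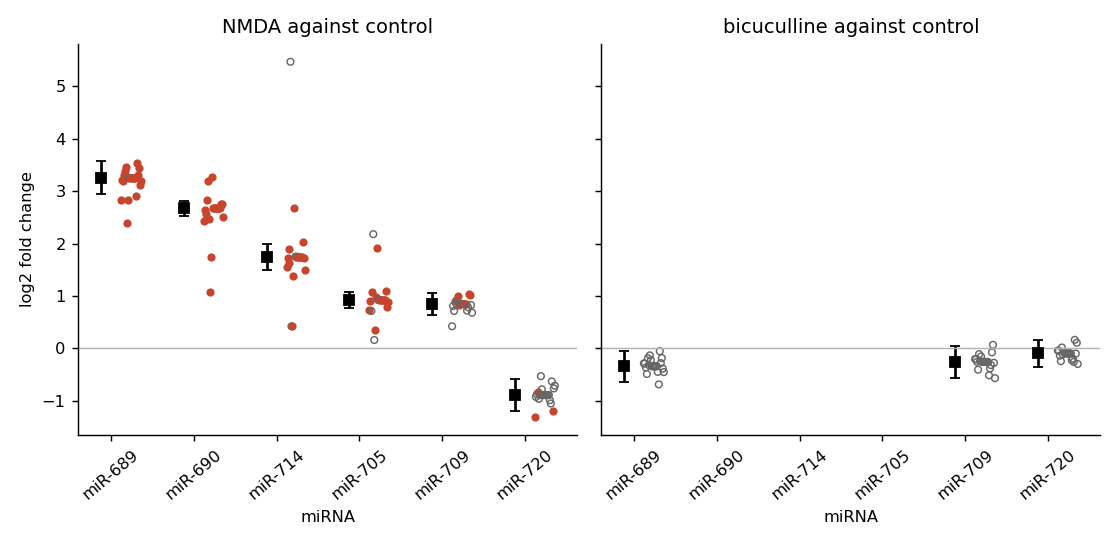
Black squares give the log2 fold change of each tested member with its standard error. Circles give it under each alternative processing, filled where the adjusted p was under 0.05. In the NMDA panel miR-689 stays between 2.39 and 3.54, while in the bicuculline panel no circle is filled for the 3 members that could be tested.

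The study itself lists 6 members for NMDA, miR-689, miR-690, miR-709, miR-714, miR-705 and miR-712, and chose them on these arrays, so their direction here is not independent evidence. The test covered 5 of these 6 and called 4 of them. The study had listed miRNAs by a change of more than 20%, not by significance. None of the adjusted p-values it gives for these 6 after NMDA is under 0.05. Its fold changes for the 4 called here are smaller than those fitted here. The 4 calls therefore do not repeat a significance call made by the study. Of the 13 other miRNAs it lists, 10 could be tested against control and 10 were called higher after NMDA. These too were chosen on the same arrays, and most entered the test only through their NMDA arrays. The outcome was thus close to fixed in advance and is no support for the list. The bicuculline test covered 2 of the 6 and 3 of the 13, with 0 calls. miR-706 and miR-681, which had NMDA signals apart from control, are not on that list, and both were too dim for the test used here. Beyond the arrays, the study measured miR-689, miR-690 and miR-709 by quantitative PCR and reports them raised by NMDA but not by bicuculline. The NMDA dose there was higher than the array labels give. It also reports them raised by glutamate and by KCl. In rats given kainate it reports a rise of miR-689 and miR-709, and for miR-690 a small one that was not significant. Those PCR measurements were not among the data used here.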

How the data were processed

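The authors deposited the Feature Extraction output of 9 Agilent arrays, with processed spot intensity that is background-subtracted but not scaled across arrays. They also deposited a table with 1 log2 value per miRNA and array. Per the file headers the software version was 10.7.1.1 on slide 1 and 10.7.3.1 on slide 2. From the intensities, 3278 spots flagged as outliers were left out and spots of a probe averaged. A probe counted as well above background if this was marked for 50% of its spots or more. Each array was scaled to its 75th percentile over 265 probes, floored at 7.94% of it and put on the log2 scale. The brightest probe, by its mean over all 9 arrays, stood for a miRNA. limma 3.58.1 (R 4.3.3, two-sided, no covariates, Benjamini-Hochberg, threshold 0.05) was fitted to the 6 arrays compared, over all miRNAs for which the 3 arrays of either group were well above background, and members were counted afterwards. The step was tested on simulated data. No spot was saturated. Precision is limited by the number of arrays.

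Members, lists and comparisons were chosen with earlier results of these data known. Members that could be tested for either treatment were named with all values, those present on some arrays with their range, and the others without values, with the exceptions stated. Sequences and gene names come from RefSeq (GRCm38.p6), matched by exact name. The array headers name another build, and no coordinates of the arrays were used.

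Pairing by replicate number was examined with the deviations from the group mean over 156 miRNAs. For NMDA and control the correlations between arrays of the same number were 0.36, 0.76 and 0.63, all above 0.1, and each of these pairs lay on 1 slide. The pairs of different numbers that shared slide 1 had 0.13 and -0.10. For bicuculline and control the same numbers gave 0.59, 0.085 and 0.72, and for NMDA and bicuculline 0.62, -0.026 and 0.72. The pairs at 0.085 and -0.026 lay on different slides. Different numbers on 1 slide gave 0.33 and 0.11 for bicuculline with control, and 0.45 and 0.26 for bicuculline with NMDA. Across slides different numbers gave at most -0.24 for bicuculline with control and -0.30 for bicuculline with NMDA. Alternatives were other scalings, probe summaries, floors and filters, the authors' log2 table, normexp on the median spot intensity, the methods' t-test, a joint fit of the 3 groups, blocks for replicate number or slide, and each array left out in turn.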

Additional observations from a re-analysis of the deposited data

How the results depend on the processing

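For NMDA against control the number of members called, 4 among 15 calls over 181 miRNAs, was 2 among 5 with the total gene signal, 2 among 12 with the mean of all probes, 2 among 12 with the methods' t-test, 1 among 5 over 650 without a filter and 1 among 3 over the 157 miRNAs detected on every array compared, where 3 members could be tested. It was highest at 6, with 5 higher and 1 lower, both without scaling (among 18) and without NMDA replicate 1 (among 17). For NMDA against bicuculline the 4 among 16 became 2 among 12 with the mean of all probes, 2 among 8 without a filter, 2 among 10 with the methods' t-test and 1 among 5 over the 158 that every array compared detected. With each array left out it lay between 4 and 6 for NMDA against control, between 3 and 5 for NMDA against bicuculline and at 0 for bicuculline against control, where all other alternatives run also gave 0. The cause of these differences was not tested beyond the smaller number of members that the stricter filter admits. With the replicate block 5 members among 17 calls over 181 miRNAs were called for NMDA against control and 5 among 17 for NMDA against bicuculline, with miR-709 added, and 0 for bicuculline against control. In each comparison with bicuculline 1 same-number pair lay across slides. Its correlation was below those of the other same-number pairs but above those of different numbers across slides. miR-689 lost its call for NMDA against control only without a filter, at an adjusted p of 0.081, whereas miR-705 lost it under 5 alternatives and miR-714 under 4, and miR-690 under none of those that tested it. Signs turned only for bicuculline against control, where no value was called. miR-720 was at 0.014 with the total gene signal. Leaving out 1 array gave -0.69 to -0.057 for miR-689, -0.30 to 0.16 for miR-720 and -0.57 to 0.065 for miR-709. Signals below about 8% of the scale are at the limit of detection, so for most members neither a rise nor a fall could be measured.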

Other observations

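The star strands of 2 members are on the array and were not part of the block. miR-712* gave -0.83% of the scale in control, -0.087% after NMDA and -0.97% after bicuculline as group means, and was well above background on no array, whereas the NMDA arrays of miR-712 reached 6.83% to 9.77%. miR-708* was likewise well above background on 0 arrays, with group means of 0.012%, 0.46% and 0.092% in the same order.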
